A study of Mus musculus with 3 samples.

Results

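Pro-B and pre-B cell genes are used by B-cell precursors in the bone marrow (BM) while they assemble and test their antigen receptor. The 9 genes described here are Rag1, Rag2, Dntt, Vpreb1, Vpreb3, Igll1, Pax5, Ebf1 and Cd79a. They were chosen by name, with earlier results of these data known. All 9 had exactly 1 row in the deposited tables, which list 17250 gene names. BM cells were flushed from femur, tibia, pelvis and humerus of C57BL/6 mice aged 6 to 8 weeks, and polyadenylated RNA was sequenced. One library came from mice at 0 days, for which the labels give no injection, and 1 each from mice that received recombinant LECT2 s.c. once a day for 3 or 5 days at 300 μg per kg body weight. LECT2 is a chemotactic protein that the liver secretes into blood. The methods describe male mice, and the number of mice behind each library is not given in the sources used here.

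In a developing B cell, the RAG1 and RAG2 proteins together cut the immunoglobulin gene segments, and terminal transferase, the product of Dntt, adds bases at the cut ends before they are joined. A pre-B cell first pairs its new heavy chain with a surrogate light chain made of VPREB1 and IGLL1, also known as λ5, and carries it to the surface with the signalling chains CD79A and CD79B. EBF1 and PAX5 are transcription factors that set up and hold the B-cell programme. Rag1, Rag2, Dntt, Vpreb1 and Igll1 are restricted to early stages, whereas Cd79a, Pax5 and Ebf1 stay on in later B cells.

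Rag1 and Rag2 went the opposite way to most of the other genes. At 5 days both had more than 2-fold higher RPKM than at 0 days, while the other 7 genes had lower RPKM, by 1.06-fold for Ebf1 to 1.83-fold for Vpreb1. RPKM is the reads on a gene scaled by its length and by the depth of sequencing. By deposited RPKM, Rag1 was level from day 3 to day 5 (log2 ratio −0.03), but at −0.26 under TMM scaling and −0.34 with the length trend removed, and Rag2 was higher in each later library. At 5 days both stayed higher but under 2-fold with TMM scaling (0.90 and 0.88 on the log2 scale) and with the trend of the ratios over gene length removed (0.42 and 0.69). With that trend removed Vpreb3 (0.12) and Igll1 (0.08) were above 0 as well, while under TMM scaling the other 7 genes all stayed lower. The 9 genes together took 0.215%, 0.184% and 0.174% of the reads in the 0-, 3- and 5-day libraries. Of their 33454, 27931 and 26922 reads, 17046, 12333 and 10959 were from Cd79a alone, so this share leans heavily on Cd79a. In bulk BM, fewer cells of a type and less RNA per cell cannot be told apart.

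Sequencing depth was 15523952, 15146983 and 15514673 gene reads in the 0-, 3- and 5-day libraries. With 1 library per time point, no difference has a replicate check and no p-value is given. The 95% intervals are exact (Clopper-Pearson for ratios, Poisson for levels) and cover counting error only, since amplified reads lacking molecular identifiers cannot be counted as separate molecules. Changes are log2 ratios of RPKM + 0.1, which slightly understates the change of low genes. For 11144 genes averaging 1 RPKM or more, the median log2 ratios at 3 and 5 days against 0 days were 0.10 and 0.31, and TMM scaling (factors from the genes that change least) brought these medians to 0.02 and 0.01. Long genes had higher ratios as a class. The medians at 3 and 5 days were −0.49 and −0.45 for genes up to 1000 bases long but 0.31 and 0.58 for those over 2500 bases. This bears on the 9 genes, which run from 602 bases (Vpreb3) to 6669 bases (Rag1) in the tables, so values with the length trend removed are given beside the main ones.

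**Figure D1:**
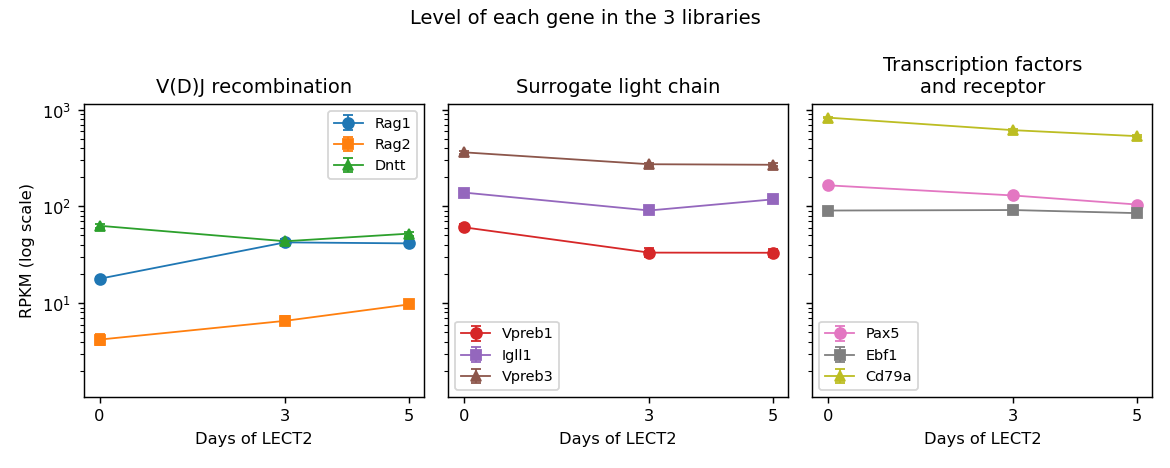
RPKM (log axis) of the 9 genes at 0, 3 and 5 days of LECT2, 1 library per point, in 3 panels by role, with bars for 95% Poisson intervals of the reads. Rag1 goes from 17.9 to 42.4 RPKM between 0 and 3 days and meets Dntt there, Rag2 goes up at both steps, and the remaining genes are level or lower at 3 and 5 days than at 0 days.

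The promoters of the 9 genes were searched for 2 motifs, because EBF1 and the E2A proteins, which Tcf3 encodes, are known regulators of this programme. All 9 genes matched the RefSeq promoter table (GRCm38.p6, 250 bases before to 50 after each start), with 10 promoters in all. CAGGTG, an E box that E2A can bind, was found on either strand in 4 of the 10 promoters, those of Rag1, Vpreb1, Igll1 and Cd79a, and in 20.2% of all 32851 promoters. CCCNNGGG, the core of the EBF1 site, was found in 1 of the 10, that of Igll1, and in 13.7% of all. The 2 motifs do not overlap at any of these matches. The windows around the matches are shown 5′ to 3′ on the strand of the gene with the match in capitals. Distances are counted from the RefSeq start in that table, which can differ from the GENCODE gene ends given for the same gene, and for Vpreb1 and Cd79a lies inside the GENCODE span. The E boxes start 135 bases before the start of Rag1, 88 before Vpreb1, 154 before Cd79a and 8 before Igll1, the last on the opposite strand, and the EBF1 core starts 231 bases before Igll1.
Rag1, chr2:101649635-101649694, minus strand: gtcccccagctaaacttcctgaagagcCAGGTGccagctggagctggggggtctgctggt
Vpreb1, chr16:16869311-16869370, minus strand: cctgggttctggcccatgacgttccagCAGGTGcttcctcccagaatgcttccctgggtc
Cd79a, chr7:24897316-24897375, plus strand: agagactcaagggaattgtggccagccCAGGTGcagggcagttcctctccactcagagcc
Igll1 (E box), chr16:16863986-16864020, minus strand: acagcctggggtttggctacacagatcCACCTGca
Igll1 (EBF1 core), chr16:16864182-16864235, minus strand: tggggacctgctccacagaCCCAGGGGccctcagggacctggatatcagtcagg

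Rag1 encodes the catalytic subunit of the V(D)J recombinase. Its minus-strand locus spans chr2:101638282-101649501 (GRCm38, GENCODE M21), and it has 2 exons in its longest coding transcript. The 0-, 3- and 5-day libraries held 1849, 4288 and 4288 Rag1 reads, which is 17.9, 42.4 and 41.4 RPKM. The 0-day library was low and the other two were alike, with the same read count in libraries of slightly different size. Against 0 days, Rag1 had a log2 ratio of 1.24 at 3 days (95% interval 1.17 to 1.33) and of 1.21 at 5 days (1.14 to 1.29). Between 3 and 5 days it was −0.03 (−0.10 to 0.03). At 3 days only 1.66% of the 11144 genes had a higher ratio than Rag1, and at 5 days 8.88% did. With the length trend removed, the ratios were 0.75 and 0.42, no longer 2-fold, with 4.65% and 20.9% of genes higher.

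Rag2 encodes the partner subunit and lies beside Rag1 on chromosome 2, from 101624718 to 101632529 on the plus strand, with 5752 bases between the ends of the 2 genes. Its reads numbered 221, 337 and 510 in the same order, giving 4.20, 6.56 and 9.69 RPKM, the lowest level of the 9 genes in each library. Its level was higher at each later time point. The log2 ratio was 0.63 at 3 days (0.40 to 0.90) and 1.19 at 5 days (0.98 to 1.44), and the interval at 5 days includes a change of slightly less than 2-fold. From 3 to 5 days it was 0.56 (0.36 to 0.77). With the length trend removed Rag2 stayed higher, at 0.41 and 0.69.

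The ratio of the 2 recombinase genes was highest in the 3-day library. There were 837 Rag1 reads per 100 Rag2 reads at 0 days (95% interval 727 to 966), 1272 at 3 days (1139 to 1426) and 841 at 5 days (767 to 923). Such a ratio within a library does not depend on how the library is scaled. The 3-day library stood apart from the other two, whose intervals overlap. The log2 change of the ratio was 0.60 at 3 days (0.34 to 0.87) and 0.01 at 5 days (−0.24 to 0.25), and 0.34 and −0.26 with the length trend removed. B230118H07Rik, whose exons overlap 80 exonic bases of Rag1 and 208 of Rag2, had 187, 103 and 121 reads, against 221, 337 and 510 for Rag2. Whether the 2 genes share reads was not tested.

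Dntt, on chromosome 19 from 41029275 to 41059525, encodes terminal transferase and did not follow the 2 RAG genes. It had 2087, 1409 and 1729 reads, or 63.0, 43.6 and 52.2 RPKM at 0, 3 and 5 days. The level was highest at 0 days and lowest at 3 days. The log2 ratio was −0.53 at 3 days (−0.63 to −0.43), −0.27 at 5 days (−0.36 to −0.18) and 0.26 between 3 and 5 days (0.16 to 0.36). With the length trend removed the first 2 values were −0.53 and −0.48, while the last was 0.02. At 0 days Dntt stood well above Rag1 (63.0 against 17.9 RPKM), and at 3 days their intervals overlapped.

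The surrogate light chain genes Vpreb1 and Igll1 had their highest level at 0 days. Both lie on the minus strand of chromosome 16, Igll1 from 16860671 to 16863985 and Vpreb1 from 16868403 to 16870843, with 4417 bases between them. Vpreb1 had 729, 389 and 397 reads, or 60.8, 33.3 and 33.1 RPKM, so that the 3- and 5-day libraries were alike and lower. From 3 to 5 days its log2 ratio was −0.0052, but −0.23 under TMM scaling. Its log2 ratio was −0.87 at 3 days (−1.05 to −0.69) and −0.87 at 5 days (−1.06 to −0.70), the lowest of the 9 genes at both times as deposited. With the length trend removed Dntt was lower at 3 days, and Cd79a, Pax5 and Dntt at 5 days, Dntt within its counting interval. Reads of Vpreb1 could be shared with its close copy Vpreb2, which had 37, 22 and 12 reads, and with Top3b, whose exons on the other strand overlap 108 of its exonic bases. Top3b had 756, 919 and 1149 reads. Sharing of reads was not tested.

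Igll1 was lowest at 3 days and partly back at 5 days. It had 1878, 1195 and 1595 reads, or 139, 90.7 and 118 RPKM. The log2 ratio was −0.62 at 3 days (−0.72 to −0.51), −0.23 at 5 days (−0.33 to −0.14) and 0.38 from 3 to 5 days (0.27 to 0.49). Per 100 Igll1 reads there were 38.8 Vpreb1 reads at 0 days (35.6 to 42.3), 32.6 at 3 days (29.0 to 36.5) and 24.9 at 5 days (22.2 to 27.8), a log2 change of −0.64 at 5 days (−0.85 to −0.44). This pair is of similar length, and with the length trend removed the change was −0.56.

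Both genes are short, and part of their lower RPKM was shared by genes of their length. Among 525 genes within 20% of the length of Vpreb1 the medians at 3 and 5 days were −0.48 and −0.38. Among 669 genes within 20% of the length of Igll1 they were −0.44 and −0.30. With the trend removed Vpreb1 stood at −0.40 and −0.48, whereas Igll1 was −0.19 at 3 days and 0.08 at 5 days, so the direction of Igll1 at 5 days depended on this correction.

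Vpreb3, on chromosome 10 from 75943057 to 75949657, encodes a relative of VPREB1 that associates with immunoglobulin heavy chains inside the cell. It had 3386, 2487 and 2515 reads, or 362, 273 and 269 RPKM, the second-highest level of the 9 genes in each library. By deposited RPKM the 3- and 5-day libraries were alike and lower than that of 0 days, with log2 ratios of −0.41 (−0.48 to −0.33) and −0.43 (−0.50 to −0.35). From 3 to 5 days the ratio was −0.02, but −0.24 under TMM scaling. Vpreb3 is the shortest of the 9 genes, and genes within 20% of its length had medians of −0.55 at both times. With the trend removed its ratios turned to 0.15 and 0.12, so no direction for Vpreb3 holds under every scaling.

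Pax5, on chromosome 4 from 44524757 to 44710487, was lower at each later time point. It had 3097, 2372 and 1959 reads, or 165, 130 and 105 RPKM. The log2 ratio was −0.35 at 3 days (−0.43 to −0.27), −0.66 at 5 days (−0.74 to −0.58) and −0.31 from 3 to 5 days (−0.40 to −0.22). With the length trend removed it was −0.06 at 3 days and −0.54 at 5 days. The tables give Pax5 1208 bases, while its longest coding transcript in GENCODE M21 has 8004, so its level relative to other genes and its length-corrected values depend on which transcript the reads were counted on.

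Ebf1, on chromosome 11 from 44617317 to 45008091, had the steadiest RPKM of the 9 genes as deposited. It had 3161, 3121 and 2970 reads, or 90.6, 91.7 and 85.2 RPKM. The log2 ratio was 0.02 at 3 days (−0.05 to 0.09) and −0.09 at 5 days (−0.16 to −0.02), and −0.07 and −0.40 under TMM scaling. Against Pax5, the ratio of reads went from 102 Ebf1 reads per 100 Pax5 reads at 0 days (97.1 to 107) to 132 at 3 days (125 to 139) and 152 at 5 days (143 to 161). The 3 intervals do not overlap. The log2 change at 5 days was 0.57 (0.46 to 0.68), but 0.21 with the length trend removed. That correction rests on the lengths in the tables, which for Ebf1 is 2248 bases against 5981 in its longest coding transcript.

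Cd79a, on chromosome 7 from 24897381 to 24902197, had the highest level of the 9 genes in every library and lay above 99.3% of genes with reads at 0 days. It had 17046, 12333 and 10959 reads, or 827, 614 and 532 RPKM, lower at each later time point. The log2 ratio was −0.43 at 3 days (−0.46 to −0.40) and −0.64 at 5 days (−0.67 to −0.60), and −0.19 and −0.58 with the length trend removed. With Pax5, Cd79a was thus among the genes that were lower at 5 days than at 0 days under the deposited RPKM, TMM scaling and length correction alike.

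The 4 genes with an E box did not move together, as Rag1 was 2.31-fold higher at 5 days and Vpreb1 1.83-fold lower. Igll1 and Cd79a lay between them, at −0.23 and −0.64 on the log2 scale. A match describes these letters only and is not a measured binding site.

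Per length, the order of the levels at 0 days was Cd79a, Vpreb3, Pax5, Igll1, Ebf1, Dntt, Vpreb1, Rag1 and Rag2, with Dntt and Vpreb1 not separated beyond counting error. At 3 days Ebf1 and Igll1 were not separated, nor were Dntt and Rag1, and Rag1 stood above Vpreb1. At 5 days no neighbours in the order had overlapping intervals. The span from the highest to the lowest of the 9 genes narrowed from 197-fold at 0 days to 93.6-fold at 3 days and 54.9-fold at 5 days. In each library it is the ratio of Cd79a to Rag2 alone. The log2 change of Rag2 per Cd79a at 5 days was 1.84, and 1.27 with the length trend removed.

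**Figure D2:**
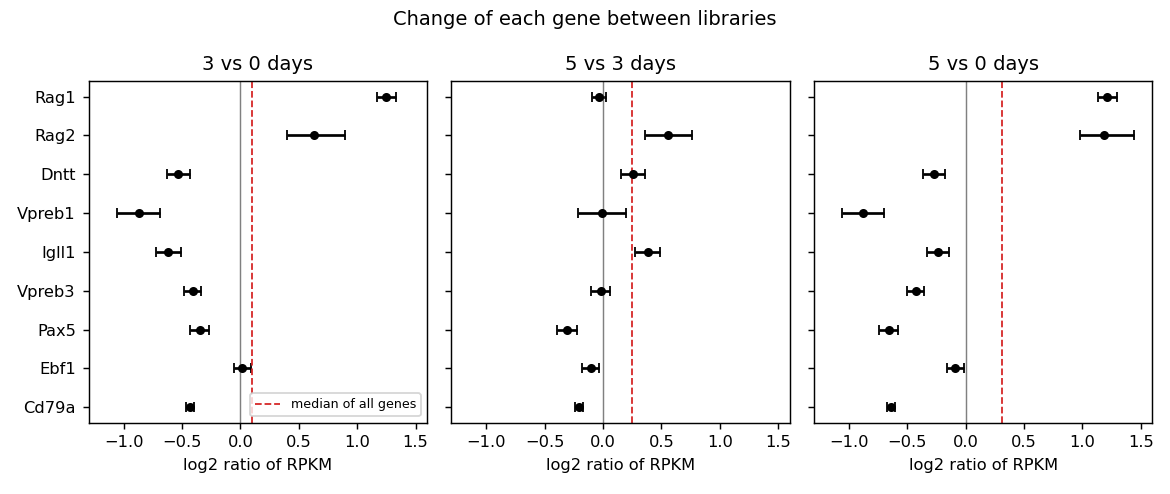
log2 ratio of RPKM of each gene for 3 against 0, 5 against 3 and 5 against 0 days, with 95% counting intervals. The red dashed line is the median of 11144 genes (0.10, 0.25 and 0.31), and in the right panel only Rag1 and Rag2 lie to the right of it.

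Counted by a threshold of 2-fold, 1 of the 9 genes (Rag1) was higher and 0 were lower at 3 days, where 4.08% of the 11325 genes with at least 1 RPKM in either library were higher and 2.41% lower. At 5 days 2 genes (Rag1 and Rag2) were higher and 0 lower than at 0 days, where 15.5% of 11497 genes were higher and 5.91% lower. Between 3 and 5 days 0 were higher and 0 lower, where 1.95% of 11375 genes were higher and 3.45% lower. The 2 of 9 at 5 days lie near the share of all genes. The split of all genes depended on the scaling: of those past 2-fold, 62.9% were higher at 3 days, 72.4% at 5 days and 36.1% between 3 and 5 days by RPKM as deposited, against 48.9%, 41.3% and 10.6% with TMM factors. At 5 days under TMM scaling Rag1 and Rag2 were at 0.90 and 0.88, below 2-fold, and Vpreb1 was at −1.18, past 2-fold, where 7.13% of 11446 genes were higher and 10.2% lower. At 3 days Rag1 stayed past 2-fold under TMM, at 1.16.

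The median log2 ratio of the 9 genes was −0.41 at 3 days and −0.27 at 5 days, against 0.10 and 0.31 for all genes, and −0.02 between 3 and 5 days, against 0.25. Both comparisons with 0 days share that library. With the length trend removed the medians were −0.06 at 3 days, near 0, and −0.34 at 5 days.

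**Figure D3:**
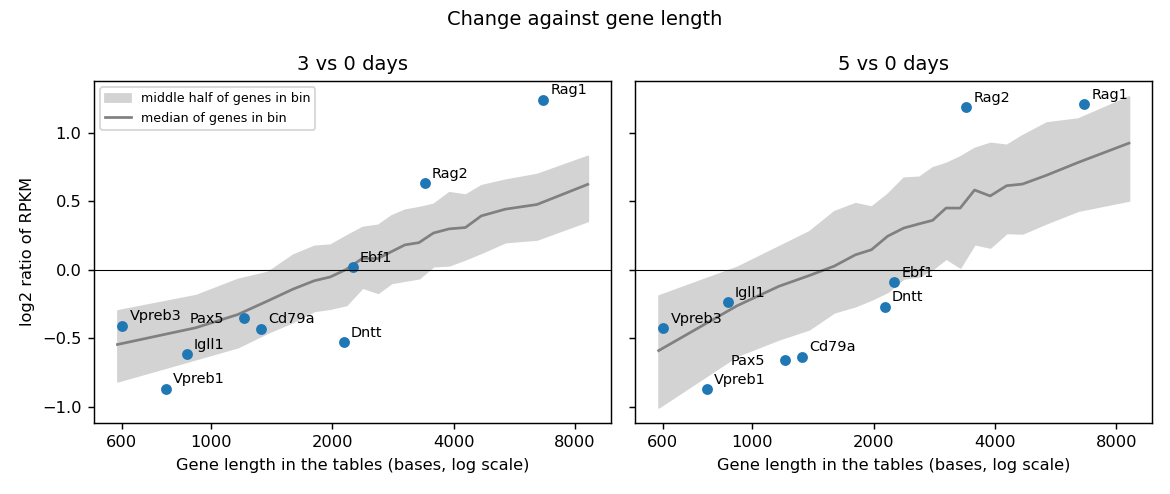
log2 ratio of RPKM at 3 and 5 days against 0 days plotted over gene length (log axis), with the 9 genes as points and the median and middle 50% of all genes in 20 bins of length as a grey line and band. Rag1 and Rag2 lie above the band at both times, Dntt and Vpreb1 below it at both times, Pax5 and Cd79a below it at 5 days, and Vpreb3, Igll1 and Ebf1 inside it at both times.

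The reads of the 2 RAG genes were also set against those of Cd79a, which most B-lineage cells carry. The size of such a change depends on the marker chosen. At 5 days Cd79a and Cd79b were lower than at 0 days, at −0.64 and −0.49 on the log2 scale, and the B-lineage genes Blnk and Cd22 were higher, at 0.36 and 0.45, near the median of 0.31 over all genes. Under TMM scaling Blnk and Cd22 were at 0.05 and 0.15, and with the length trend removed at 0.16 and −0.13. There were 10.8 Rag1 reads per 100 Cd79a reads at 0 days (95% interval 10.3 to 11.4), 34.8 at 3 days (33.6 to 36.0) and 39.1 at 5 days (37.8 to 40.5). For Rag2 the ratio was 1.30 at 0 days (1.13 to 1.48), 2.73 at 3 days (2.44 to 3.05) and 4.65 at 5 days (4.25 to 5.09). No interval of one library overlapped that of another for either gene. The log2 change of the ratio at 5 days was 1.85 for Rag1 (1.76 to 1.94) and 1.84 for Rag2 (1.61 to 2.08). Removing the length trend, which separates these long genes from the shorter Cd79a, reduced it to 1.00 and 1.27.

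The other early genes showed smaller shifts against Cd79a. Igll1 had 11.0, 9.69 and 14.6 reads per 100 Cd79a reads in the 0-, 3- and 5-day libraries, and Dntt had 12.2, 11.4 and 15.8. Both were thus higher per Cd79a read at 5 days than at 0 days, although their RPKM was lower. After length correction this change was 0.66 for Igll1 and 0.09 for Dntt on the log2 scale. Vpreb1 was lower, with a log2 change of −0.24 at 5 days (−0.42 to −0.06), which turned to 0.10 with the length trend removed. The change of Pax5 at 5 days was −0.02 (−0.11 to 0.07), an interval that includes 0, and from 3 to 5 days it was −0.11 (−0.20 to −0.01). Vpreb3 stood at 19.9, 20.2 and 22.9 reads per 100 Cd79a reads, and Ebf1 at 18.5, 25.3 and 27.1. The log2 change at 5 days was 0.21 for Vpreb3 and 0.55 for Ebf1, and 0.70 and 0.24 with the length trend removed.

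**Figure D4:**
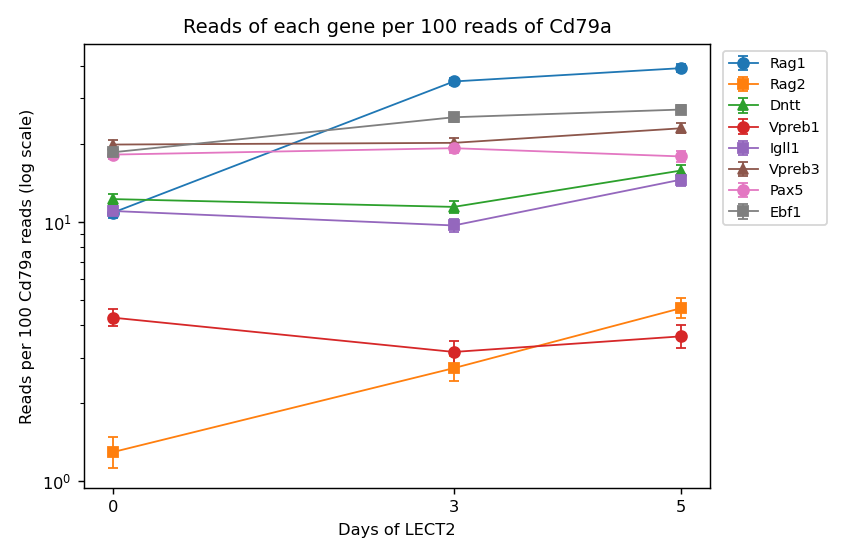
Reads of each gene per 100 reads of Cd79a (log axis) at 0, 3 and 5 days, 1 library per point, with exact 95% intervals. Rag1 goes from 10.8 to 39.1 and Rag2 from 1.30 to 4.65, Pax5 stays between 17.9 and 19.2, and Vpreb1 is at its lowest at 3 days.

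Other genes of early B-cell development were examined as a list of 21, all with at least 1 RPKM. At 3 days 1 (Ikzf3) was at least 2-fold higher and 0 lower, and at 5 days 3 were higher (Ikzf3, Lef1 and Cd93) and 1 lower (Vpreb2). The counts at 5 days lie near the 15.5% higher and 5.91% lower among all genes. Under TMM scaling Lef1 (0.72) and Cd93 (0.70) were no longer 2-fold higher, and with the length trend removed none of the 4 passed 2-fold, at 0.86 for Ikzf3, 0.71 for Lef1, 0.22 for Cd93 and −0.84 for Vpreb2. Their medians at 3 and 5 days were 0.24 and 0.40, near those of all genes, and 0.03 and −0.16 with the length trend removed. Ikzf3, which encodes the lymphoid zinc-finger factor Aiolos, was the highest ratio of the list and had 16.5, 37.2 and 45.0 RPKM at 0, 3 and 5 days. Its log2 ratio was 1.17 at 3 days (1.07 to 1.28) and 1.44 at 5 days (1.35 to 1.55), and 0.86 at both times with the length trend removed. Like Rag1, Ikzf3 was low at 0 days and already high at 3 days.

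Il7r, the receptor for the growth factor IL-7 that pro-B cells depend on, had 26.6, 38.6 and 50.8 RPKM, with a log2 ratio of 0.93 at 5 days (0.83 to 1.03) that was 0.46 with the length trend removed. Tcf3, which encodes the E2A proteins that act with EBF1, had 69.3, 81.7 and 109 RPKM, with 0.65 at 5 days (0.59 to 0.71) and 0.16 after length correction. Cd79b, the partner of Cd79a, had 523, 417 and 372 RPKM and −0.49 at 5 days (−0.54 to −0.45). The most abundant genes of the list besides Cd79b were Cd24a, a surface protein of immature cells that BM cells of other lineages also carry, with 1325, 1280 and 1026 RPKM, and Spib, an ETS-family factor, with 171, 209 and 219 RPKM. Vpreb2, the close copy of Vpreb1, had the lowest ratio of the list at 5 days, −1.57 (−2.70 to −0.65), from 37 and 12 reads.

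After the RAG cut, the ends are joined by the non-homologous end-joining proteins that all cells have. Of 9 such genes, 0 were at least 2-fold changed at 3 days, and at 5 days 1 (Prkdc) was higher and 0 lower, near the 15.5% and 5.91% of all genes, with a median of 0.06. Prkdc, the DNA-dependent protein kinase, had 1.47, 2.50 and 4.04 RPKM, but at 12674 bases its log2 ratio of 1.40 became 0.36 with the length trend removed. Xrcc6, the most abundant, had 70.1, 60.3 and 67.7 RPKM, Polm, a polymerase related to terminal transferase, had 33.8, 37.7 and 34.3, and Dclre1c, the nuclease Artemis that opens the hairpin ends, had 15.8, 16.6 and 15.4. Nhej1 had the lowest ratio of this list at 5 days, −0.67, with 9.79, 7.42 and 6.10 RPKM. At 5 days 6 of the 9 joining genes were above and 3 below their 0-day level, from −0.67 (Nhej1) to 1.40 (Prkdc). Of all genes, 32.4% were below 0. Under TMM scaling, and likewise with the length trend removed, 3 of the 9 were above and 6 below, with medians of −0.24 and −0.26.

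Of 12 mature B-cell genes, 9 had a row and 7 at least 1 RPKM, and none of the 7 was 2-fold changed at either time. Their median was −0.03 at 3 days and −0.23 at 5 days, against 0.10 and 0.31 for all genes. It was −0.12 and −0.54 under TMM scaling, and 0.06 and −0.37 with the length trend removed. Ighm, Ighd and Igkc had no row, so immunoglobulin chains themselves were not analysed here. Cd74, the invariant chain of MHC class II, had 1037, 776 and 717 RPKM, Cd37 had 395, 339 and 284, and Fcrla 170, 166 and 141. Cd74 had the lowest ratio of these 7 at 5 days, −0.53 (−0.56 to −0.50). Cd22, an inhibitory receptor, had the highest, 0.45, with 24.3, 32.7 and 33.4 RPKM.

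Markers of other cell types were examined, and their part in the values of the 9 genes was not tested. Developing T cells also use Rag1, Rag2 and Dntt, and 9 of 9 T-cell markers were lower at 3 and at 5 days, with a summed level of 153, 90.3 and 97.1 RPKM. Cd2 alone held 68.2, 41.0 and 39.9 RPKM of these sums. Cd4 at 5 days was at −0.07, with an interval that includes 0 (−0.21 to 0.06). Ptcra, the pre-T-cell receptor chain, had 32, 17 and 20 reads, and its intervals at 3 days (−1.82 to 0.01) and 5 days (−1.56 to 0.17) also include 0. All 6 markers listed for plasmacytoid dendritic cells were lower at both times (5 of 6 at 3 days with the length trend removed), with a summed level of 774, 487 and 440 RPKM, although Ly6d among them is also expressed by B-cell precursors. Ly6d alone held 412, 311 and 250 RPKM of these sums. Between 3 and 5 days 3 of the 6 were higher and 3 lower, but 1 higher and 5 lower under TMM scaling. The 4 plasma cell markers summed to 32.6, 27.2 and 43.0 RPKM, with 3 higher and 1 lower at 5 days, but 2 higher and 2 lower under TMM scaling and with the length trend removed. The B-lineage markers Cd79b, Blnk and Cd22 summed to 603, 508 and 477 RPKM, with 2 of the 3 higher and 1 lower at 5 days, but 1 higher and 2 lower with the length trend removed.

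Other markers did differ strongly between the libraries. At 5 days all 11 late neutrophil markers with at least 1 RPKM were more than 2-fold lower, and the summed level of the 12 listed was 149897, 116008 and 41365 RPKM. The 7 erythroid markers summed to 4382, 3551 and 1534 RPKM, with 0 of them 2-fold changed at 3 days and 2 lower at 5 days. Those 2 made up most of the sum, Hba-a1 with 2253, 1591 and 596 RPKM and Hbb-b1 with 1696, 1387 and 527. In either size of change, 3 of the 7 were above and 4 below their 0-day level at 5 days, and 1 above and 6 below under TMM scaling. All 12 cell-cycle genes were higher at 5 days, with a median of 0.95 that was 0.64 under TMM scaling, where 9 were higher and 3 lower, and 0.55 with the length trend removed, where 10 were higher and 2 lower. The 100 genes with the highest mean RPKM held 24.8% of the reads at 0 days and 13.5% at 5 days, which raises the RPKM of the remaining genes at 5 days.

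**Figure D5:**
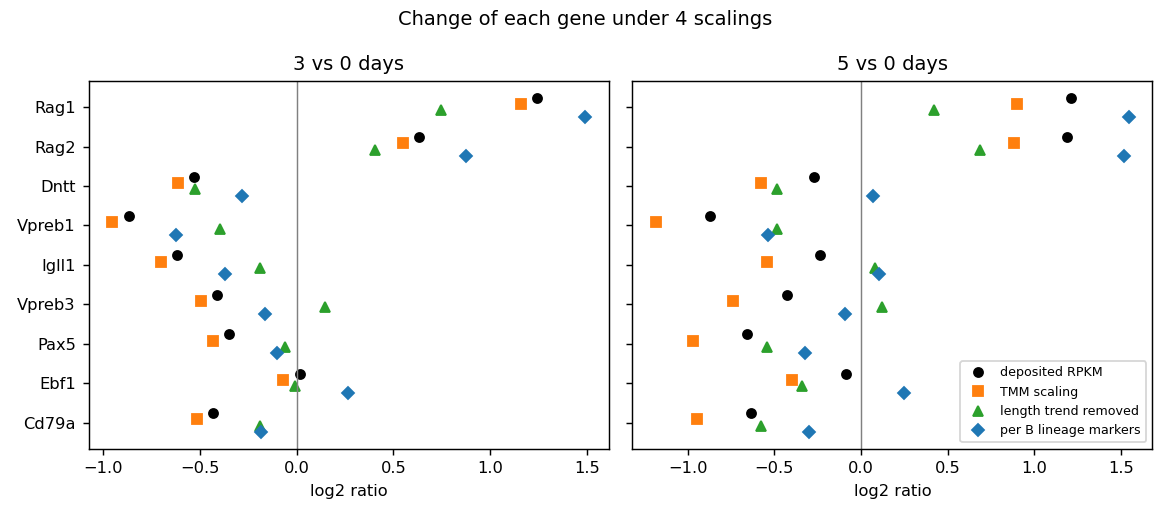
log2 ratio of each gene at 3 and 5 days against 0 days under the deposited RPKM, TMM scaling, removal of the length trend and scaling to the 3 B-lineage markers Cd79b, Blnk and Cd22. Rag1 and Rag2 lie above 0 and Vpreb1, Pax5 and Cd79a below 0 in every scaling shown, whereas at 5 days Igll1, Vpreb3, Dntt and Ebf1 have points on both sides of 0.

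Scaled to the 3 B-lineage markers, Rag1 was higher by 1.49 at 3 days and 1.55 at 5 days (log2), and Rag2 by 0.87 and 1.52. Most of the summed level of these markers is Cd79b. Vpreb1 was at −0.62 and −0.54, Pax5 at −0.10 and −0.32 and Cd79a at −0.18 and −0.30. Dntt was at −0.28 at 3 days and 0.07 at 5 days, and Igll1 at −0.37 and 0.10.

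The genes whose pattern was most like the medians of the 9 were found among 8183 other genes averaging 5 RPKM or more, by the distance between their pairs of log2 ratios at 3 and 5 days. The nearest were Fam105b, Cox8a, Baiap2, Naa38 and Pltp, at distances from 0.00396 to 0.0140. In all, 139 genes lay within 0.1, so many genes had this pattern of a modestly lower level at both times. None of the 5 is among the B-lineage genes examined here.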

How the data were processed

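RNA-seq of flushed BM cells came as 1 library for each time point, 0, 3 and 5 days of LECT2 (TruSeq library, Illumina HiSeq). The authors deposited 3 tables of pairwise comparisons with whole read counts, gene length and RPKM for each gene. RPKM as deposited was reproduced within 1% from count, gene length and the total of listed reads, except in 18 rows at 0 days and 14 at 3 days. Other columns (log2 ratio, P value, false discovery rate) hold the authors' own comparisons and were not used. The methods name Cufflinks, the submitters' processing notes name build mm8, and the aligner is not given in the sources used here. The gene length, deposited by the authors in bases, comes from an annotation not given in the sources used here.

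The 3 tables were joined by gene ID (17559 rows), and their shared counts were identical. Genes at 0 reads, listed at 0.01 RPKM, were set to 0. Gene names listed more than once were represented by their most abundant row. The members and lists were chosen with earlier results of these data known. Log2 ratios used a pseudocount of 0.1 RPKM, and 2-fold calls a minimum of 1 RPKM in either library. The named genes are the 9 members, Cd79b, Il7r and Tcf3, and in each of the 3 lists of B-cell and joining genes the 3 with the highest mean RPKM and the highest and lowest ratio at 5 against 0 days. Lef1, Cd93, Sox4 and Foxo1 were named because they passed 2-fold under some scaling. They and Ptcra, Cd2, Cd4, Hba-a1 and Hbb-b1 were named after their values were seen. Of 100 listed genes, 97 had a row, and 1 further gene is not reported here. Library factors came from edgeR 4.0.16 (TMM) and DESeq2 1.42.0 (median-of-ratios), in R 4.3.3. The length trend was a lowess curve of the log2 ratio on log length (span 0.3, statsmodels 0.14.6). Intervals and other steps were computed in Python 3.11.15 with scipy 1.17.1 and were checked on simulated counts. Scaling to the B-lineage markers was chosen after seeing the data. Positions are from GENCODE M21 (GRCm38), not the authors' build.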

Additional observations from a re-analysis of the deposited data

How the results depend on the processing

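With 1 library per time point, leaving out a library leaves no comparison, and no paired analysis was possible because no group has replicates. The median log2 ratio of the 9 genes at 3 against 0 days (−0.41) was −0.49 under TMM and −0.49 under median-of-ratios scaling, −0.51 with scaling to the reads outside the 100 most abundant genes, −0.059 with the length trend removed and −0.16 scaled to the B-lineage markers. At 5 against 0 days (−0.27) it was −0.58, −0.57 and −0.47 under the first 3, and changed sign to 0.067 scaled to the B-lineage markers. With the trend removed it was −0.34. At 5 against 3 days (−0.02) it was −0.24, −0.24 and −0.12 under the first 3, −0.12 with the trend removed and 0.072 scaled to the markers.

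The number of genes at least 2-fold higher at 3 days, 1, was 0 with a threshold of 4-fold and 0 with the trend removed. At 5 against 0 days, where it was 2, TMM gave 0, median-of-ratios 0, removal of the trend 0, the 4-fold threshold 0 and scaling outside the 100 most abundant genes 1 (Rag1). The number at least 2-fold lower at 5 days, 0, was 1 (Vpreb1) under TMM, under median-of-ratios and with scaling outside the 100 most abundant genes. Under TMM 10.2% of all genes were 2-fold lower. Among single genes whose counting interval lay on one side of 0, the sign changed for Vpreb3 at 3 days (0.15) and 5 days (0.12) and for Igll1 at 5 days (0.082) with the trend removed, and for Dntt (0.067), Ebf1 (0.25) and Igll1 (0.10) at 5 against 0 days scaled to the markers. Among those whose interval spanned 0, it changed for Ebf1 at 3 against 0 days under TMM (−0.068), under median-of-ratios (−0.064), with scaling outside the 100 most abundant genes (−0.079) and with the trend removed (−0.0085), and for Rag1 (0.056), Vpreb1 (0.085) and Vpreb3 (0.072) at 5 against 3 days scaled to the markers. Pseudocounts of 1 and 0.01 RPKM and the sum of all rows moved no median, no count and no single gene beyond the counting interval. A minimum of 5 RPKM and no minimum, which bear on the counts alone, left each count as it was.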
